A study of Mus musculus with 6 samples.

Results

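Exosomes are small vesicles that cells release and that carry RNA. The transcripts described here are those of the mouse miR-9 loci, chosen by gene name from the deposited table of noncoding RNA counts: the hairpins Mir9-1, Mir9-2 and Mir9-3, the microRNA-class transcript Gm25641 on the strand opposite Mir9-1, and the long noncoding RNAs C130071C03Rik and Mir9-3hg, which span Mir9-2 and Mir9-3. These 6 genes had 15 of the 5880 rows of the table. The exosomes were taken from medium conditioned by cells of the mouse line P19, which is pluripotent and of teratocarcinoma origin. UD-P19 (replicates 1, 2 and 3) were undifferentiated cells kept in serum-free alpha-MEM with N2 supplement. P19N (replicates 4, 5 and 6) were neurons made from the same line with retinoic acid and kept in neurobasal medium with B27 and N2 supplements, sampled at 8, 10 and 12 days in vitro. The labels name no drug for either group, while the study's methods give mitotic inhibitors for the neuronal cultures. Each replicate gave 1 small RNA library. Age and replicate cannot be told apart within P19N, and the study's methods describe medium taken from flasks on day 8 and again every other day, while its results call the 6 preparations independent. Whether the days shared flasks is thus not settled, and p-values measure the spread between these libraries. All groups come from 1 cell line, and in exosomal RNA fewer vesicles with a transcript and fewer copies per vesicle cannot be told apart.

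A microRNA gene is transcribed into a long primary transcript, a hairpin is cut out of it in the nucleus, and a further cut in the cytoplasm releases a duplex of which either arm can guide silencing of messenger RNAs through its seed. miR-9 is known as a microRNA of the nervous system, where it acts on neural progenitor proliferation and on differentiation. Both of its arms are used, and the 5p arm is known to target Nr2e1 and Hes1, while the 3p arm is known to target the Rest corepressor Rcor1.

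The mature sequences show what a counted read can and cannot tell. RefSeq (GRCm38.p6) lists miR-9-5p and miR-9-3p with the same sequence at all 3 loci, and lists a further pair, miR-9b, in Gm25641, on the strand opposite Mir9-1. They are printed 5′ to 3′ with the seed (bases 2 to 8) in capitals.
miR-9-5p: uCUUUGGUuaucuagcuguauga
miR-9-3p: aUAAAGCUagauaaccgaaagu
miR-9b-5p: uUCGGUUAucuagcuuuauga
miR-9b-3p: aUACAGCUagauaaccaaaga
The 4 sequences have 4 different seeds. miR-9b-5p matched the reverse complement of miR-9-3p over 19 of its 21 bases, and miR-9b-3p matched that of miR-9-5p over all 21. Between strands the arms are also alike, because the hairpin is nearly a palindrome. Shifted by 2 bases, miR-9b-5p and miR-9-5p were identical at 19 of 21 positions. In the table, complete miR-9-5p and miR-9-3p occurred in 4 transcripts each (the 3 hairpins and C130071C03Rik-201), so that a read of either, matched on the strand of these transcripts, cannot be unique to 1 of them. Complete miR-9b-5p and miR-9b-3p occurred in Gm25641 only. RefSeq also lists miR-9b-3p opposite the other two hairpins and miR-9b-5p opposite Mir9-3, under genes that have no row in the table.

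The hairpins are shown because each has its own loop and flanks, which is where a read can be assigned to 1 locus. Capitals mark the mature arms.
Mir9-1: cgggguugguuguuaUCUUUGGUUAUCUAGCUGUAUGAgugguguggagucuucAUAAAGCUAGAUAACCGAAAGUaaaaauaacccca
Mir9-2: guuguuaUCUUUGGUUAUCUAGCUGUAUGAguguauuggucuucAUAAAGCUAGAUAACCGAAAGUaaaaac
Mir9-3: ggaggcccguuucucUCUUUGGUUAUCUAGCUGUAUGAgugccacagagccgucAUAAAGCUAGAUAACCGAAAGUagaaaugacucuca
Gm25641: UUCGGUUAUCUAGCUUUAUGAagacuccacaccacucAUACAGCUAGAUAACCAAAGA
On GRCm38 these lie at chr3:88215598-88215686 (Mir9-1, plus strand), chr13:83738814-83738885 (Mir9-2, plus strand), chr7:79505264-79505353 (Mir9-3, plus strand) and chr3:88215613-88215670 (Gm25641, minus strand). Mir9-1 and Mir9-2 were identical in 70 of 89 aligned positions, Mir9-1 and Mir9-3 in 71 of 90, and Mir9-2 and Mir9-3 in 64 of 90. RNAfold gave minimum free energies of -41.0 kcal/mol for Mir9-1, -28.2 kcal/mol for Mir9-2, -41.7 kcal/mol for Mir9-3 and -22.3 kcal/mol for the 58 bases of Gm25641. In GENCODE M21, the annotation to which the counts were matched here, the Gm25641 transcript is longer (108 bases, chr3:88215589-88215696) and holds the reverse complement of the whole 89 bases of Mir9-1.

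The loci differ in their hosts. Mir9-1 and Gm25641 lie in an intron of 5 of 11 transcripts of the long noncoding RNA Gm3764 (plus strand) and outside the others. Mir9-2 lies inside the last of the 4 exons of C130071C03Rik-201. C130071C03Rik-205 begins within the hairpin, and its first exon holds the last 23 bases of it. Mir9-3 lies in an intron of 4 of 7 transcripts of Mir9-3hg and outside the other three, so that a read of the hairpin cannot match an annotated, spliced Mir9-3hg transcript there.

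**Figure D1:**
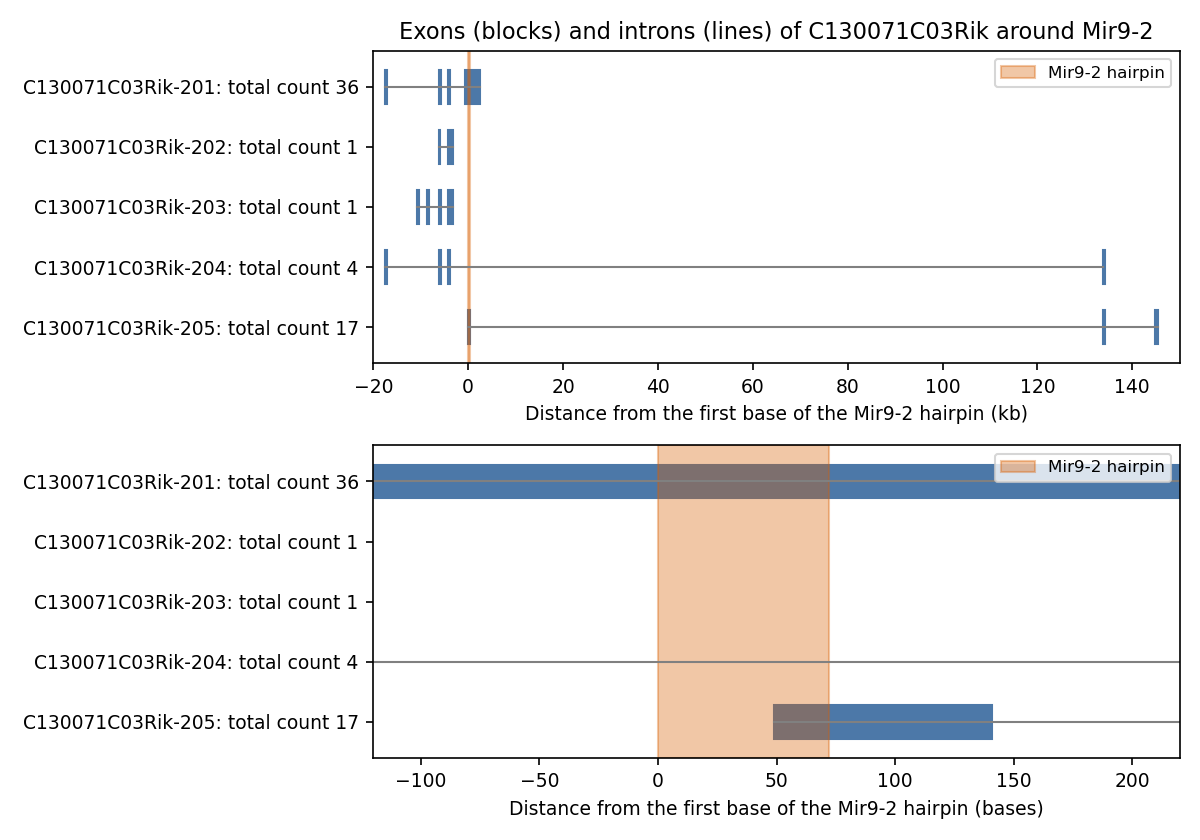
Exons (blocks) and introns (lines) of the 5 C130071C03Rik transcripts, by distance from the first base of the Mir9-2 hairpin, in kb above and in bases below, with each transcript's total count over the 6 libraries. The hairpin lies in the last exon of C130071C03Rik-201, and C130071C03Rik-205 starts within it; these transcripts held 36 and 17 counts.

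Library totals were between 454499 and 887460 counts, and 1679 to 2800 transcripts had at least 1 count. UD-P19 replicate 2 had 2800 (1679 and 1907 in the other UD-P19 libraries) and more counts of several long noncoding RNAs, which are given beside the results they touch. Unique counts, read as reads that matched a single transcript, made up at least 62.1% of the counts in each UD-P19 library and at most 38.5% in each P19N library. The table holds no messenger RNA, so the cell types were checked against noncoding markers. Of 11 listed pluripotent microRNA hairpins, 5 had a row, and they summed to 3, 14 and 1 counts in UD-P19 replicates 1, 2 and 3 and to 0, 0 and 2 in P19N replicates 4, 5 and 6. The neuronal markers with a row (Meg3, Miat, Rmst and Mir124a-3) summed to 3, 76 and 11 counts in UD-P19 and to 87, 66 and 35 in P19N. Meg3, an imprinted long noncoding RNA, had 2, 65 and 5 counts in UD-P19 and 58, 42 and 27 in P19N. Miat had 1, 10 and 5 against 9, 12 and 4, and Rmst, a long noncoding RNA of neural progenitors, had 0, 1 and 1 against 20, 11 and 4. The neuronal hairpin Mir124a-3 had a single count, in P19N replicate 5. Of 4 tested transcripts of these markers, all of Meg3 and Miat, 0 were called by edgeR's quasi-likelihood test. Of all tested transcripts 24% were called, 15% as higher in P19N, and nothing is read from the 0 of 4. The markers had 0 at an unadjusted p below 0.05, and 0 called by DESeq2 and by edgeR's exact test. Their median log2 fold change was 0.13, beside 0.21 over all tested transcripts. None of the listed glial, muscle or erythroid hairpins had a row.

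The miR-9 transcripts were found almost only in P19N exosomes: 119 of their 128 counts were in the 3 P19N libraries, and 8 of the 9 UD-P19 counts were in replicate 2. Of the P19N counts, 50.4% belonged to Gm25641 and most of the rest to C130071C03Rik. Mir9-1, Mir9-2, Mir9-3 and Mir9-3hg were at or near 0 in both groups. Of the 15 rows, 4 were at 0 in every library, 8 had 1 to 14 counts and 3 had the 15 counts or more that the test required.

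**Figure D2:**
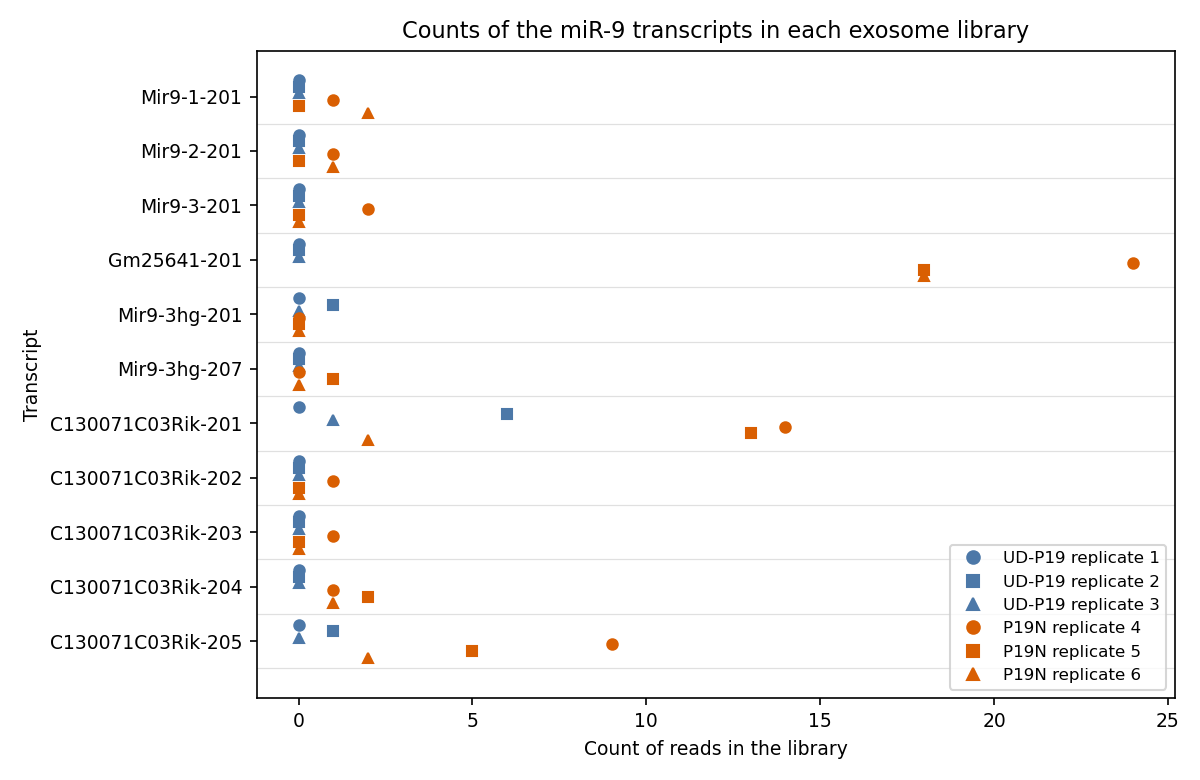
Counts of reads for the 11 miR-9 transcripts with at least 1 count, with a point for each of the 6 libraries. Gm25641 had 24, 18 and 18 counts in P19N and 0 in each UD-P19 library, and the Mir9 hairpins had at most 2 counts in a library.

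Of the 3 tested miR-9 transcripts, Gm25641 was called as higher in P19N by edgeR's quasi-likelihood test and the others were not (with edgeR's exact test C130071C03Rik-205 was called too). Its P19N counts were 24 in replicate 4, 18 in replicate 5 and 18 in replicate 6, against 0 in UD-P19 replicates 1, 2 and 3. The groups did not overlap. On the CPM scale (counts relative to library totals scaled by TMM factors) the P19N libraries, from cultures of different age, held 28.2, 23.7 and 25.0 CPM, or 25.7 ± 2.29 CPM (SD, n = 3). The 0 counts of the UD-P19 libraries allow up to 3 counts over the group, or 1.61 CPM, so Gm25641 was at least 16.0-fold higher in P19N exosomes. With 3 counts allowed in each library the bound was 4.86-fold, and with UD-P19 replicate 2 left out it was 8.71-fold. In edgeR's quasi-likelihood test over 1286 transcripts the adjusted p (Benjamini-Hochberg) was 0.000444. Of all tested transcripts 24% were called, 15% as higher and 9.02% as lower in P19N, and 1 of 3 miR-9 transcripts was called, as higher. All 3 reached the 15 counts only through P19N (60, 29 and 16 counts there against 0, 7 and 1 in UD-P19 for Gm25641, C130071C03Rik-201 and C130071C03Rik-205), so their direction is no independent result, and nothing is read from the 1 of 3. An exact two-sided permutation test of the CPM gave p = 0.1, the smallest that 3 against 3 libraries allow.

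The reads counted for Gm25641 were assigned to no other row. The 60 counts were all unique, and 43 of them were exact (17, 15 and 11 in P19N replicates 4, 5 and 6), which was read as matching without a mismatch. None of its 20-base windows occurred on the same strand in another transcript of the table. Its reverse complement shares a stretch of 89 bases with Mir9-1, 33 with Mir9-2 and 26 with Mir9-3. Placed without gaps on the same strand, mature miR-9-5p and miR-9-3p each had 4 mismatches or more to the Gm25641 transcript, and miR-9b-5p had 2 to the plus-strand hairpins. The sources used here do not say whether strand was used in counting or where in a transcript a read lay. Whether the reads are mature miR-9b, the hairpin, a longer RNA or RNA of the Mir9-1 strand was thus not tested.

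The plus-strand hairpins had few reads. Mir9-1 had 1, 0 and 2 counts in P19N replicates 4, 5 and 6, all unique and exact. Mir9-3 had 2, 0 and 0, likewise unique and exact. Mir9-2 had 1, 0 and 1, all exact and none unique, and all of its 20-base windows also occur in C130071C03Rik-201. In UD-P19 each was at 0, which allows up to 3 counts over the group for each hairpin. Their sum was 4, 0 and 3 counts in P19N and 0 in UD-P19. P19N replicate 5, with 18 counts of Gm25641, had none of them, so the groups overlapped at 0. The 7 counts have a 95% exact Poisson interval of 2.81 to 14.4, and the 60 of Gm25641 one of 45.8 to 77.2; such intervals cover counting error only, as the reads carry no molecular identifiers. Of all counts in the 4 microRNA-class rows, 89.6% were in Gm25641. Per 100 bases of transcript, the P19N libraries together held 55.6 counts for Gm25641 against 3.37 for Mir9-1, 2.78 for Mir9-2 and 2.22 for Mir9-3. Complete miR-9-5p and miR-9-3p occur in 4 rows each, and the treatment of reads with several matches is not given. These values thus compare rows and are no measure of mature miR-9 against miR-9b.

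**Figure D3:**
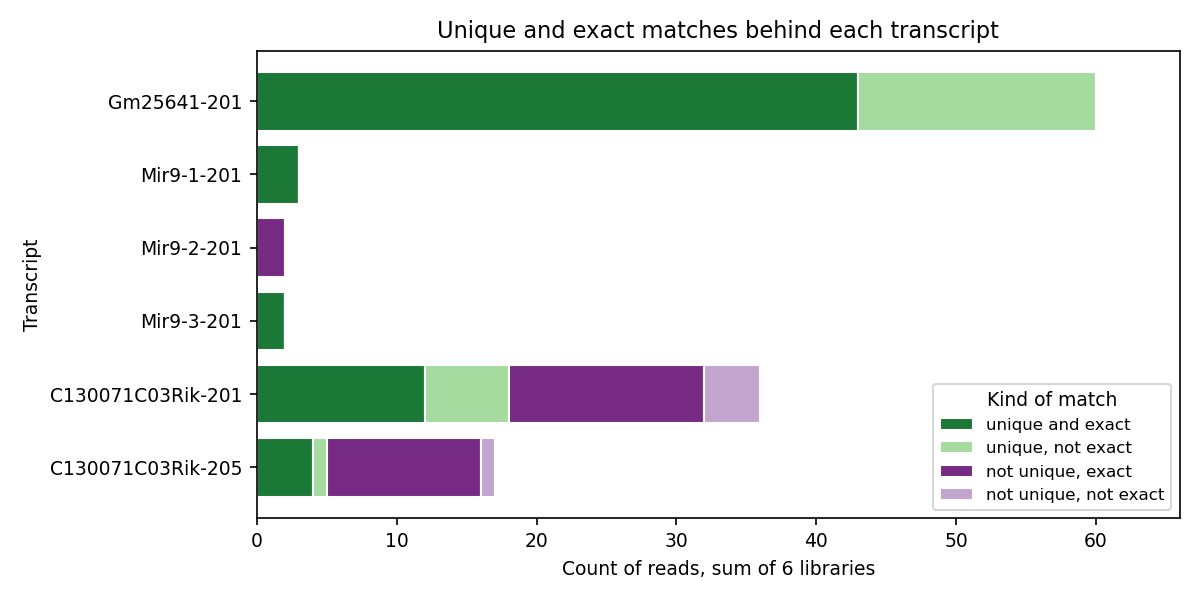
Counts summed over the 6 libraries for 6 miR-9 transcripts, split by whether the reads were unique to the transcript and exact. All 60 counts of Gm25641 were unique, while 18 of 36 counts of C130071C03Rik-201 and 12 of 17 of C130071C03Rik-205 were not.

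Gm25641 also stood out among microRNA-class transcripts. Of the 454 in the table, 252 were at 0 in all UD-P19 libraries, and among those Gm25641 had the most P19N counts, followed by Gm24111 with 34, which lies opposite Mirlet7f-1, and by Mir1839 with 17. Among all rows, 2531 transcripts were at 0 in UD-P19, and Gm25641 was the only one of them with 60 or more counts in P19N. By P19N counts alone it ranked 22 in its class. This choice of rows uses the counts of the same libraries and is a description.

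Gm25641 is one of a class of annotated transcripts that lie opposite a microRNA hairpin. The annotation has 55 microRNA-class transcripts that overlap a hairpin named Mir by at least 30 bases on the other strand, and 12 had a row. Only Gm25641 and Gm24111 reached 15 counts, both through their P19N counts alone, so that a call could only be as higher in P19N. Both were called, which is given as a description and not read against the 15% of all tested transcripts called as higher, and the other 10 rows were not tested. Gm24111 was at 0 throughout UD-P19 and had 7, 14 and 13 counts in P19N (adjusted p = 0.00299 in edgeR's quasi-likelihood test), of which 24 of 34 were unique. Its partner Mirlet7f-1 had 1, 0 and 0 counts in P19N and 0 in UD-P19. Gm25927, opposite Mirlet7e, had 2, 6 and 4 counts in P19N and 0 in UD-P19 and was not tested. In 3 of the 4 pairs with both rows in the table the transcript opposite the named hairpin had more counts; 2 of these 4 are Mir30e and Mir30f, taken once from each side, with 1 and 6 counts.

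C130071C03Rik, the host of Mir9-2, was the other miR-9 gene with measurable counts. Its 5 transcripts summed to 0, 7 and 1 counts in UD-P19 replicates 1, 2 and 3 and to 26, 20 and 5 in P19N replicates 4, 5 and 6. On the CPM scale these were 0, 8.27 and 1.65 against 30.6, 26.4 and 6.96, or 3.31 ± 4.38 against 21.3 ± 12.6 (SD, n = 3). UD-P19 replicate 2 lay above P19N replicate 6, so the groups overlapped, and the spread within P19N was wider than for Gm25641. An exact two-sided permutation test gave p = 0.2. With the transcripts of each gene summed, an alternative added after the data were seen, edgeR's quasi-likelihood test gave a log2 fold change of 2.38 ± 0.83 (approximate SE) and an adjusted p of 0.033. The gene too reached the minimum only through P19N, with 51 counts against 8, so that this call is given as a description. In that fit 15.4% of the genes were called as higher in P19N.

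**Figure D4:**
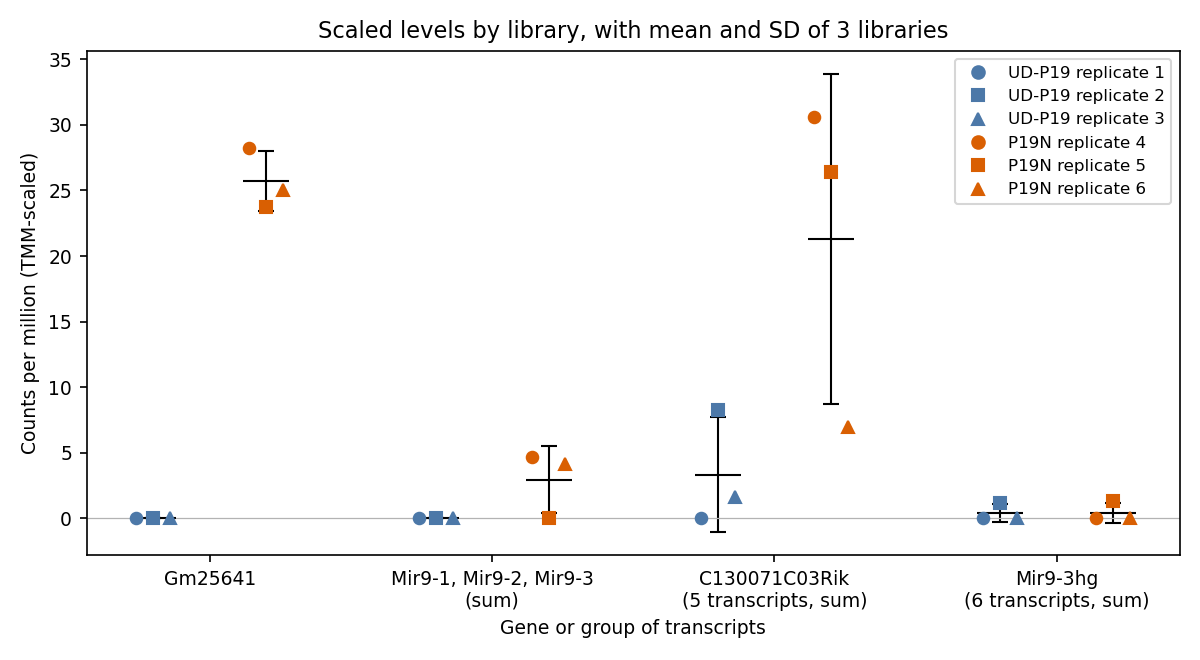
Levels in CPM (counts relative to TMM-scaled library totals) by library, with the mean and SD of the 3 libraries of each group in black, for Gm25641, the sum of the 3 Mir9 hairpins and the sums over the transcripts of C130071C03Rik and Mir9-3hg. Gm25641 was 25.7 ± 2.29 CPM in P19N, and C130071C03Rik was 21.3 ± 12.6 CPM.

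By transcript, neither C130071C03Rik row passed the test. C130071C03Rik-201, which contains the whole Mir9-2 hairpin in an exon, had 0, 6 and 1 counts in UD-P19 and 14, 13 and 2 in P19N. P19N replicate 6 lay below UD-P19 replicate 2. Its log2 fold change was 1.77 ± 0.91 (approximate SE), with an adjusted p of 0.16 in edgeR's quasi-likelihood test. C130071C03Rik-205, which starts within the hairpin, had 0, 1 and 0 counts in UD-P19 and 9, 5 and 2 in P19N. Each P19N library was above each UD-P19 library, and the fitted log2 fold change, which rests on 1 UD-P19 count, was 3.30 ± 1.20 with an adjusted p of 0.0561. The median log2 fold change over all tested transcripts was 0.21 (0.05 with DESeq2 size factors).

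Without UD-P19 replicate 2, both C130071C03Rik transcripts were called. The log2 fold change of C130071C03Rik-201 was then 3.55 (adjusted p = 0.0096, edgeR's quasi-likelihood test) and the adjusted p of C130071C03Rik-205 was 0.0148. For C130071C03Rik-205 both remaining UD-P19 libraries were at 0, so its fitted value is not a size of change. In that fit 3 of 3 miR-9 transcripts were called, 46.6% of all transcripts were called, 33.4% as higher in P19N, and the median over all of them was 0.60. That library also held 65 counts of the neuronal marker Meg3 (2 and 5 in the other UD-P19 libraries). Of the other neuronal markers it held 10 counts of Miat (1 and 5 in the others), 1 of Rmst and 0 of Mir124a-3. It also held 14 counts of the listed pluripotent hairpins (3 and 1 in the others). The part of its composition in the C130071C03Rik result was not tested. With any other library left out C130071C03Rik-201 was not called. Its log2 fold change was then from 1.06 (without UD-P19 replicate 1) to 2.22 (without P19N replicate 6).

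**Figure D5:**
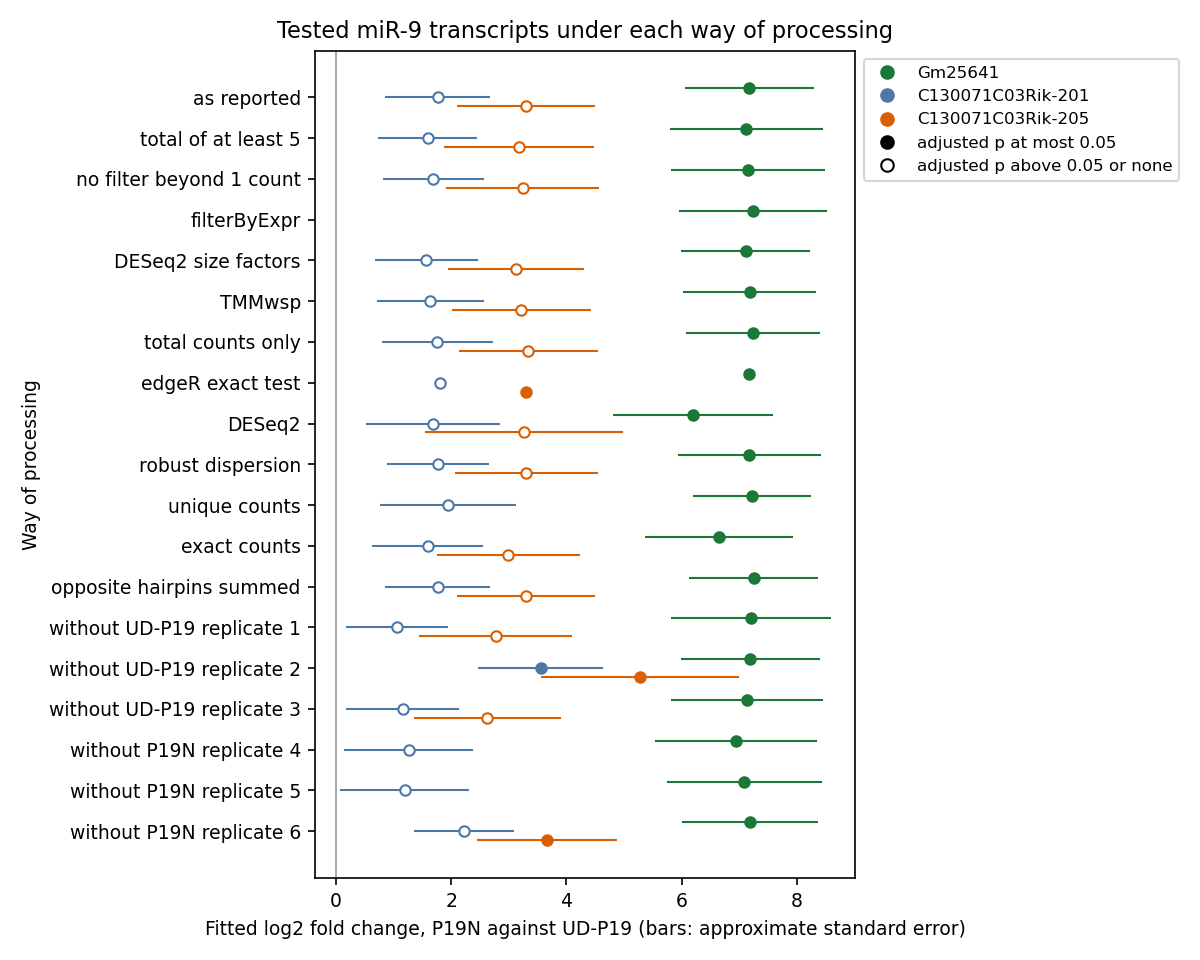
Fitted log2 fold change (P19N against UD-P19) of the 3 tested miR-9 transcripts under each way of processing, with approximate standard errors where the tool gives them and filled points where the adjusted p was at most 0.05. Gm25641 was called in each; its fitted value rests on 0 counts in UD-P19 and is not a size of change, nor is that of C130071C03Rik-205 without UD-P19 replicate 2. C130071C03Rik-201 was called only without UD-P19 replicate 2.

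The remaining C130071C03Rik transcripts hold no base of the last exon of C130071C03Rik-201. C130071C03Rik-202 and C130071C03Rik-203 had 1 count each, both in P19N replicate 4. C130071C03Rik-204, whose intron contains Mir9-2, had 1, 2 and 1 counts in P19N and 0 in UD-P19. Reads of this gene were often shared. Of those assigned to C130071C03Rik-201, 18 of 36 were not unique, and of those assigned to C130071C03Rik-205, 12 of 17. The first exon of C130071C03Rik-205 (92 bases, chr13:83738863-83738954), which begins in the hairpin, lies whole within exon 4 of C130071C03Rik-201, and 10.3% of the 20-base windows of C130071C03Rik-205 and 15.6% of those of C130071C03Rik-201 occur in another transcript of the table. The shares of reads that were not unique were thus larger than the shares of windows. Where these reads lay cannot be read from the table, and how shared reads were divided is not stated. Among 39 groups of transcripts of identical sequence with at least 15 counts per copy, 0 had equal counts in every copy, so a shared read was not counted in full at each match.

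Mir9-3hg, the host of Mir9-3, was not detectable beyond single reads. Of its 6 rows, 4 were at 0 in every library. Mir9-3hg-201 had 1 count in UD-P19 replicate 2, and Mir9-3hg-207 had 1 count in P19N replicate 5, and neither was unique. The 4 rows at 0 allow up to 3 counts each over a group (1.61 CPM in UD-P19 and 1.29 CPM in P19N). Gm3764, which spans Mir9-1, had 5 of its 11 transcripts in the table, with 0, 0 and 1 counts in UD-P19 and 1, 1 and 2 in P19N. Of the 3 hosts, C130071C03Rik alone carried more than 5 counts.

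Other microRNAs known from neurons did not reach the test. Of 54 listed neural hairpins, 23 had a row and none had 15 counts: Mir181b-1 was the highest with 1, 0 and 2 counts in UD-P19 and 1, 5 and 4 in P19N, followed by Mir99b and Mir7-1 with 5 counts each. The list summed to 21 counts in UD-P19 and 36 in P19N, fewer than the 60 of Gm25641. Of 32 listed hairpins of pluripotent cells 14 had a row, and only Mir93, of the Mir106b cluster, was tested. It had 5, 5 and 4 counts in UD-P19 and 10, 6 and 7 in P19N and was not called (adjusted p = 0.762, 0 of 1 also at an unadjusted p below 0.05 and by DESeq2). Mir20a, of the Mir17 cluster, had 4, 3 and 2 counts in UD-P19 and 0 in P19N. Mir367, of the Mir302 cluster, had 1, 6 and 0 against 0, 0 and 2. The list of pluripotent hairpins, Mir93 included, summed to 57 counts in UD-P19 and 32 in P19N.

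Among 10 tested transcripts of other microRNA hosts, 1 was called, as lower in P19N, where 9.02% of all tested transcripts were called as lower. Nothing is read from the 1 of 10. Mir17hg-201, the host of the Mir17 cluster, had 23, 19 and 15 counts in UD-P19 and 5, 3 and 5 in P19N and fell by 2.56 on the log2 scale (adjusted p = 0.00763 in edgeR's quasi-likelihood test). Mir17hg-201 reached the minimum of 15 counts only through UD-P19, so its direction is no independent result. Of the 3 rows with the most counts it was joined by a Meg3 transcript (2, 41 and 3 against 31, 24 and 18, adjusted p = 0.571) and Mir99ahg-214 (2, 31 and 5 against 9, 6 and 7, adjusted p = 0.361). The median log2 fold change of the 10 was -0.27, beside 0.21 over all tested transcripts.

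The log2 CPM of other transcripts was compared with that of each tested miR-9 transcript over the 6 libraries, and the 5 most alike are named. For Gm25641 these were Snord22 (Pearson r = 0.997), Gm22456 (0.996) and Gm22614, Gm22068 and Rnu1b2 (0.995 each). All 5 were called as higher in P19N, as were 15% of all tested transcripts. Snord22 had 21, 44 and 31 counts in UD-P19 and 104, 93 and 94 in P19N. For C130071C03Rik-201 they were Gm22682 (0.995), Gm24018 and Gm26390 (0.992 each), Gm22063 (0.989) and Rn7s6 (0.988), none of them called. For C130071C03Rik-205 they were Gm23141 (0.997), Snora23 (0.996), Gm24205 (0.989), Malat1 (0.988) and Gm26127 (0.985). Of these, Gm23141 and Malat1 were called as higher in P19N and the others were not called. Malat1, an abundant nuclear long noncoding RNA, had 94, 241 and 132 counts in UD-P19 and 843, 687 and 313 in P19N. These are descriptions over 6 libraries, whose points share depth, library composition and group. The transcripts were picked by their likeness in these same libraries, so nothing is read from how many of them were called.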

How the data were processed

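Small RNA of exosomes was sequenced from 3 UD-P19 and 3 P19N preparations (paired ends, NEBNext small RNA libraries). The authors trimmed adaptors, joined read pairs and matched the reads to noncoding transcripts of GRCm38 in CLC Genomics Workbench with default parameters, and deposited counts per transcript without normalization, with further columns of exact and unique counts (headed as mature 5', a class to which all counts of the table were assigned), which the sources used here do not define. Strand and the treatment of reads with several matches are not given in the sources used here. Deposited fold changes, p-values and group means are the authors' own comparison and were not used, nor were 48 columns of per-sample values that repeat the counts or belong to other match classes.

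Rows were matched by transcript identifier to GENCODE M21 (5773 of 5880, with 107 not matched), and the sequences of the 4 microRNA-class members were found in RefSeq. A minimum of 15 counts summed over the libraries was set, and the transcripts that reached it went into edgeR 4.0.16 (R 4.3.3; TMM, quasi-likelihood F test, Benjamini-Hochberg over all of them, threshold 0.05); the SE is the fold change over the root of F. The fit was tested on simulated data. CPM use TMM-scaled totals. For a transcript at 0 the limit used was 3 counts. Intervals are 95% exact Poisson. Folds used RNAfold 2.7.2. Alternatives were other filters, scalings, tests (DESeq2 1.42.0, edgeR's exact test), unique or exact counts, opposite hairpins summed, and each library left out. The members and lists were chosen with earlier results of these data known. Named were every member row, the called and the 3 highest rows of each list, and the 5 transcripts (prior count 2 for log2 CPM, each sequence once) most correlated with each tested member.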

Additional observations from a re-analysis of the deposited data

How the results depend on the processing

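Gm25641 was called as higher in P19N under all 19 alternatives, with adjusted p between 1.49e-07 and 0.00431; since the tested miR-9 transcripts reached the minimum through P19N alone, their constant direction is no sign of stability. Its fold bound was 4.86 with 3 counts allowed in each library, and from 8.71 to 16.6 when a library was left out, lowest without UD-P19 replicate 2. The number of miR-9 transcripts called was 1, and it was 2 with edgeR's exact test and with the transcripts of a gene summed, and from 1 to 3 when a library was left out: 3 without UD-P19 replicate 2 and 2 without P19N replicate 6. Over all transcripts the exact test called 334 of 1286 (61.4% of the calls higher in P19N) and the fit without P19N replicate 6 called 304 of 1194 (64.8% higher). C130071C03Rik-205 was the added call with the exact test (log2 fold change 3.30, adjusted p = 0.0331) and without P19N replicate 6 (3.66, adjusted p = 0.0451); its adjusted p ranged from 0.0148 to 0.175, DESeq2 gave none, and it was too low to be tested with unique counts, with filterByExpr or without P19N replicate 4 or 5. C130071C03Rik-201 had adjusted p from 0.0096 to 0.506. Of the pluripotency hairpins 2 of 6 tested (Mir20a and Mir20b, lower in P19N) were called with a filter of 5 counts. Without a filter 2 of 13 were called, and in the other fits 0. Mir20b had 1, 6 and 2 counts in UD-P19 and, like Mir20a, 0 in P19N. Both passed these filters through UD-P19 alone and could only be called as lower, so nothing is read from these calls. Over all transcripts the filter of 5 counts called 397 of 2079 (47.9% of the calls higher in P19N). Without a filter 281 of 4623 transcripts were called (58.0% higher). Of the other hosts 1 of 9 or 10 tested was called when a library was left out, except without UD-P19 replicate 2. There 2 of 9 were called, the added one being a Meg3 transcript, as higher in P19N. In that fit 46.6% of all transcripts were called, 33.4% as higher in P19N, and nothing is read from the 2 of 9. Of the transcripts opposite a hairpin 1 of 1 tested was called with filterByExpr and 1 of 1 with exact counts, where Gm24111 had too few counts. With a filter of 5 counts 3 of 4 were called, which added Gm25927, and 2 of 2 when any library was left out. Over all transcripts filterByExpr called 294 of 770 (66.3% of the calls higher in P19N) and exact counts 361 of 966 (53.2% higher). As those called opposite a hairpin had 0 counts in UD-P19, nothing is read from these numbers. Calls over all transcripts were 62.5% higher in P19N with TMM and 48.5% with DESeq2 size factors, and numbered 309 in all, 127 with unique counts, 199 without P19N replicate 4 and 533 without UD-P19 replicate 2. No paired analysis was possible because the groups share no replicate numbers. Depth limits the hairpins and Mir9-3hg, where a change of a few counts per library could not be seen.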
